A study of Mus musculus with 4 samples.

Results

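The genes described here are 10 components of signalling by the Toll-like receptors that sit at the cell surface. They are the receptors Tlr2, Tlr4 and Tlr6, the TLR4 co-receptor Ly96, the adaptors Myd88, Ticam1 and Ticam2, the kinases Irak4 and Irak1, and the ubiquitin ligase Traf6. They were picked by name from the 21506 genes of the deposited tables, and the row with the longest exon length stood for each gene. All 10 had a row, and 9 passed the filter on low values, which left out Tlr6.

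RNA sequencing had been done on 32Dclone3 cells, a mouse myeloid cell line that was grown with interleukin-3 from WEHI medium. The control cells carried the XZ control virus and the other cells carried XZ-miR-125b, which expresses the miRNA miR-125b. Each group had 2 libraries of poly(A) RNA, from stable infections with different virus supernatants. Both groups were thus infected, both were kept in the same interleukin-3 medium, and no ligand of a Toll-like receptor is named as a treatment. The series text states the purpose as a comparison of expression levels between vector and miR-125b cells.

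As background, Toll-like receptors recognise microbial molecules. TLR2 pairs with TLR1 or TLR6 to bind lipopeptides, and TLR4 binds lipopolysaccharide together with MD-2, the product of Ly96. All of these receptors signal through MyD88, which assembles IRAK4 and IRAK1 and hands the signal to TRAF6, whose ubiquitin chains activate the kinases TAK1 and IKK and then NF-kB. TLR4 has another branch, in which TRAM (Ticam2) links the receptor to TRIF (Ticam1), leading to TBK1, IRF3 and interferon-beta. Myeloid cells use these receptors as sensors of infection.

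The libraries held between 10.4 and 12.6 M reads, summed over all rows. Across genes, control replicate 2 stood apart from the other libraries, with correlations of log2(RPKM + 1) between 0.937 and 0.957, whereas the other pairs were at 0.962 to 0.979. RPKM scales the reads of a gene by its exon length in kilobases and by the library total in M reads, so that levels of different genes can be set side by side. The hairpin row of Mir125b-1 had 0 reads in either control and 4 reads in each of the libraries labelled miR-125b. The 11 markers of myeloid progenitors summed to 1145 to 1925 RPKM. Of these, Ctsg, the gene of a granule protease, had the highest mean level (375, 674, 547 and 419 RPKM in control replicates 1 and 2, then miR-125b replicates 1 and 2), while the stem cell marker Kit held 1 read in control replicate 2 and 0 elsewhere, and Cd34 held between 0 and 6 reads.

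The sequences that bear on the comparison are those of the expressed miRNA and of the sites that could pair with it. The mature miRNA is printed first, from RefSeq (GRCm38.p6), with its seed, bases 2 to 8, in capitals. Below it stand the matches to the seed in the longest annotated 3′ UTR of the members (GENCODE M21, GRCm38), with the matching bases in capitals. CTCAGGG pairs with all of the seed (7mer-m8), CTCAGGGA adds the A opposite the first base (8mer), TCAGGGA is a 7mer-A1 and TCAGGG a 6mer. Only the transcript strand was searched, and each site was counted once, as its longest form.
miR-125b-5p: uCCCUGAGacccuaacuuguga
Traf6, 8mer: tttggagtctagttCTCAGGGAg
Traf6, 7mer-m8: taaatgtcggcattCTCAGGGta
Traf6, 6mer: tggctcatctgtctgTCAGGGta
Myd88, 7mer-m8: atgtcatggtccctCTCAGGGta
Ticam1, 7mer-A1: cacactctatcgtctTCAGGGAa
Irak4, 7mer-A1: cggggttaaacaacgTCAGGGAa
Tlr6, 6mer: tttcttgttcttataTCAGGGtc

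Traf6 held the most matches of the 10 genes. Its 3′ UTR of 4170 bases had the 8mer from base 1340 after the stop codon, the 7mer-m8 from base 3225 and the 6mer from base 248. Myd88 had a single 7mer-m8, from base 717 of 987. Ticam1 and Irak4 had a 7mer-A1 each, Tlr6 a 6mer, and Ticam2 a pair of 6mers at bases 466 and 472, the sequences of which are not shown. No match was found in Tlr2, Tlr4, Ly96 or Irak1. The 3′ UTRs of Tlr2 and Ly96 were short, at 148 and 74 bases, against a median of 1141 bases over the tested genes with one. Those of Tlr4 and Irak1 had 1321 and 1526 bases.

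Among all 9938 tested genes with a 3′ UTR, 15.6% had an 8mer or 7mer-m8 and 5.56% an 8mer. Of the 9 tested members, 2 had an 8mer or 7mer-m8 and 1 had an 8mer. The 3′ UTR of Traf6 was long, as only 6.84% of the genes had one of at least that length, and of those long 3′ UTRs 37.5% held an 8mer or 7mer-m8 and 14.0% an 8mer. A match of letters is a description and does not show that the miRNA binds there.

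**Figure D1:**
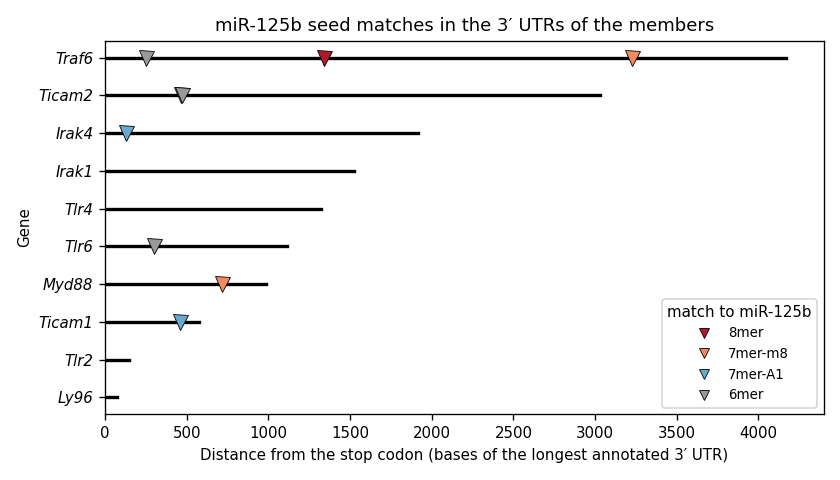
Position of miR-125b seed matches along the longest annotated 3′ UTR of each of the 10 genes, as the distance in bases from the stop codon. Black lines give the length of each 3′ UTR and triangles the matches, coloured by type; Traf6 carries the 8mer, Traf6 and Myd88 carry a 7mer-m8, and the 2 matches of Ticam2 lie so close that their triangles overlap.

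The members covered a wide range of levels. In control cells the mean RPKM ran in the order Myd88 (39.7), Irak1 (23.1), Ticam1 (13.5), Traf6 (9.90), Irak4 (6.41), Tlr4 (5.49), Ticam2 (4.20), Tlr2 (3.95), Ly96 (1.29) and Tlr6 (0.398). Of the neighbours in this order, Ticam2 and Tlr2 had overlapping ranges over the 2 control libraries, and the other neighbours did not. In miR-125b cells the first 3 and the last 3 kept their places, but Ticam2 (8.11 RPKM) and Tlr4 (7.85 RPKM) stood above Traf6 (5.64 RPKM) and Irak4 (5.56 RPKM). There, Ticam2 and Tlr4 overlapped in range, as did Traf6 and Irak4.

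**Figure D2:**
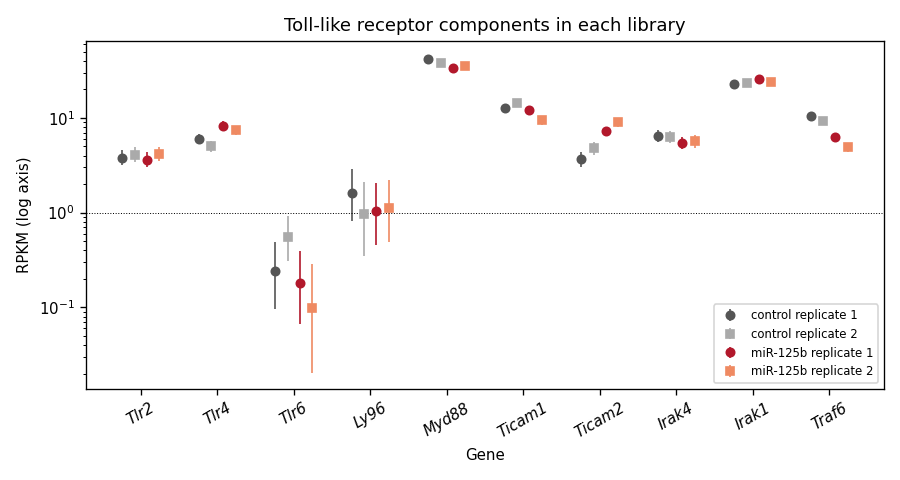
RPKM of the 10 genes in each of the 4 libraries, on a log axis. Points are single libraries, bars are exact 95% Poisson intervals that cover counting error only, and the dotted line is the 1 RPKM of the filter; Traf6 is lower, and Tlr4 and Ticam2 are higher, in both miR-125b libraries, and the bars of Tlr6 and Ly96 are wide.

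Groups were compared with limma's moderated linear model on log2(RPKM + 1), fitted over all 10310 genes that reached 1 RPKM in at least 2 libraries. No gene passed at an adjusted p under 0.05 (0.0% of the tested genes), so none of the members did. At an unadjusted p under 0.05, limma gave 967 genes (9.38% of them), and limma-voom on recovered reads gave 0 genes by adjusted p and 997 by unadjusted p. Leaving out 1 library moved the count at an unadjusted p under 0.05 to between 332, with miR-125b replicate 2 left out, and 3007, with control replicate 1 left out, and the count by adjusted p to between 0 and 91 (without miR-125b replicate 1). Among the 9 tested members 2 were higher at an unadjusted p under 0.05 (Ticam2 and Tlr4; 4.17% of all tested genes were) and 1 was lower (Traf6; 5.21% were). The groups did not overlap in 3 higher members (22.3% of all tested genes) and 4 lower members (20.4%). They were thus apart in 7 of 9, against 42.8% of all tested genes. These counts are a description only, as the members were chosen with earlier results of these data known. Irak1, among the higher ones, was apart by a small margin, with 23.4 RPKM in control replicate 2 and 23.9 RPKM in miR-125b replicate 2. The median log2 fold change was -0.12 over the tested members and 0.024 over all tested genes. For a single gene, an exact permutation test of 2 libraries against 2 cannot give a 2-sided p below 0.333.

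Tlr4, the receptor for lipopolysaccharide (mm9 chromosome 4, 66488845 to 66503830, 3 exons), stood at 5.97 and 5.01 RPKM in the controls against 8.30 and 7.40 RPKM under miR-125b. Both miR-125b libraries were above both control libraries. The means were 5.49 ± 0.681 and 7.85 ± 0.638 RPKM (mean ± SD, n = 2 per group), a ratio of 1.43. In limma's test the log2 fold change was 0.45 ± 0.19 (SE), with an unadjusted p of 0.0487 and an adjusted p of 0.527. The unadjusted p was above 0.05 in 8 of 14 other settings, among them the fit without control replicate 2 (0.0974) and the correction for GC content (0.0751).

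Ly96, which encodes the MD-2 subunit that TLR4 needs to bind lipopolysaccharide, was near the floor. It held 11 and 6 reads in the controls against 8 and 8 in the miR-125b libraries, or 1.62, 0.959, 1.05 and 1.13 RPKM. The groups overlapped, and the 95% Poisson interval in control replicate 1 ran from 0.811 to 2.91 RPKM. The log2 fold change was -0.12 ± 0.24 (SE; limma's adjusted p = 0.878). These few reads limit what Ly96 can show, and no detection limit was computed. The ratio of Tlr4 to Ly96 in RPKM was 3.68 and 5.23 in control and 7.90 and 6.55 under miR-125b, and it rests on those few Ly96 reads.

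Tlr2, which recognises bacterial lipopeptides (mm9 chromosome 3, 83640194 to 83645530, 3 exons), was the member with the smallest difference. It stood at 3.81 and 4.08 RPKM in the controls against 3.64 and 4.15 RPKM under miR-125b, so that the control values lay within the range of the miR-125b values. The log2 fold change was -0.017 ± 0.19 (SE; limma's adjusted p = 0.976). Tlr6, a partner of TLR2 (mm9 chromosome 5, 65344334 to 65351273, 2 exons), had 7 and 15 reads in the controls against 6 and 3 in the miR-125b libraries. These are 0.240, 0.556, 0.183 and 0.0983 RPKM, and Tlr6 was not tested because it never reached 1 RPKM. Its control libraries were both above its miR-125b libraries, but the Poisson intervals of control replicate 1 (0.0964 to 0.494 RPKM) and miR-125b replicate 1 (0.0671 to 0.398 RPKM) overlapped. In limma's fit without a filter the difference was -0.29 ± 0.13 (SE), with an unadjusted p of 0.0800 and an adjusted p of 0.628. Tlr1, the other partner of TLR2, held between 0 and 4 reads in a library.

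Myd88, the adaptor shared by these receptors and by the interleukin-1 and interleukin-18 receptors (mm9 chromosome 9, 119245106 to 119249158, 6 exons), was the most abundant member. It stood at 41.7 and 37.8 RPKM in the controls against 33.5 and 35.6 RPKM under miR-125b. Both miR-125b libraries were below both control libraries, by a small margin. The log2 fold change was -0.20 ± 0.18 (SE), with an adjusted p of 0.730 in limma's test, and a 7mer-m8 match is printed for it above.

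The adaptors of the TRIF branch differed in direction. Ticam1, which encodes TRIF (mm9 chromosome 17, 56408887 to 56416190, 2 exons), stood at 12.8 and 14.2 RPKM in the controls against 12.2 and 9.40 RPKM under miR-125b. The miR-125b libraries were lower, replicate 1 only slightly, and the log2 fold change was -0.31 ± 0.20 (SE; limma's adjusted p = 0.636). Leaving out miR-125b replicate 2 gave -0.14, and leaving out replicate 1 instead gave -0.48.

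Ticam2, which encodes the bridging adaptor TRAM (mm9 chromosome 18, 46717885 to 46734187, 3 exons), stood at 3.66 and 4.75 RPKM in the controls against 7.23 and 8.98 RPKM under miR-125b. The lowest miR-125b library was well above the highest control library. The means were 4.20 ± 0.776 and 8.11 ± 1.24 RPKM (mean ± SD, n = 2 per group), 1.93 times as high under miR-125b. In limma's test the log2 fold change was 0.81 ± 0.21 (SE), with an unadjusted p of 0.00659 and an adjusted p of 0.420. Ticam2 had the largest log2 fold change among the members, and 1.04% of all tested genes had one at least as high. The unadjusted p was 0.0735 without miR-125b replicate 2. The ratio of Ticam2 to Ticam1 in RPKM was 0.285 and 0.334 in the controls against 0.595 and 0.955 in the miR-125b libraries, so that TRAM and TRIF transcripts were nearly level in miR-125b replicate 2.

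The kinases below MyD88 differed little. Irak4, the kinase that MyD88 recruits first (mm9 chromosome 15, 94374091 to 94398745, 12 exons), stood at 6.47 and 6.35 RPKM in the controls against 5.48 and 5.65 RPKM under miR-125b. The replicates lay close together and the groups did not overlap, but the log2 fold change was only -0.18 ± 0.17 (SE; limma's adjusted p = 0.747). Irak1, the kinase that IRAK4 phosphorylates (mm9 chromosome X, 71259254 to 71269260, 15 exons), stood at 22.7 and 23.4 RPKM in the controls against 25.6 and 23.9 RPKM under miR-125b. The log2 fold change was 0.099 ± 0.18 (SE; limma's adjusted p = 0.851). Irak1 has 5 rows, and in the shortest, of 2458 bases, the control libraries stood at 20.0 and 26.4 RPKM and the miR-125b libraries at 25.4 and 23.1 RPKM, so that the groups overlapped there. The hairpin Mir718 lies within an exon of Irak1 (73 bases), and no other member shared exon bases with another gene of the tables.

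Traf6, the ubiquitin ligase on which the MyD88 branch converges (mm9 chromosome 2, 101518597 to 101541131, 8 exons), stood at 10.6 and 9.24 RPKM in the controls against 6.35 and 4.92 RPKM under miR-125b. Both miR-125b libraries were well below both control libraries. These values rest on 649 and 525 reads in control and on 439 and 316 reads under miR-125b. The means were 9.90 ± 0.930 and 5.64 ± 1.01 RPKM (mean ± SD, n = 2 per group), 1.76 times lower under miR-125b. In limma's test the log2 fold change was -0.72 ± 0.20 (SE), with an unadjusted p of 0.00887 and an adjusted p of 0.439, and 3.28% of all tested genes had one at least as low. The unadjusted p was 0.123 without miR-125b replicate 2.

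Ratios of Traf6 to its partners, which rest on the same Traf6 values, were lower too. The ratio of Traf6 to Irak1 in RPKM was 0.465 and 0.395 in the controls against 0.248 and 0.206 in the miR-125b libraries. The ratio of Traf6 to Myd88 was 0.253 and 0.244 in control and 0.190 and 0.138 under miR-125b. For description, the median log2 fold change over all tested genes was -0.012 for the 3612 with at least a 6mer match, -0.069 for the 1549 with an 8mer or 7mer-m8, and -0.12 for the 553 with an 8mer. It was -0.19 for the 159 that, like Traf6, had at least 2 matches of 7mer-m8 type of which at least 1 was an 8mer, and 0.050 for the 6326 with no match. The part of the matches in the level of Traf6 was not tested.

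**Figure D3:**
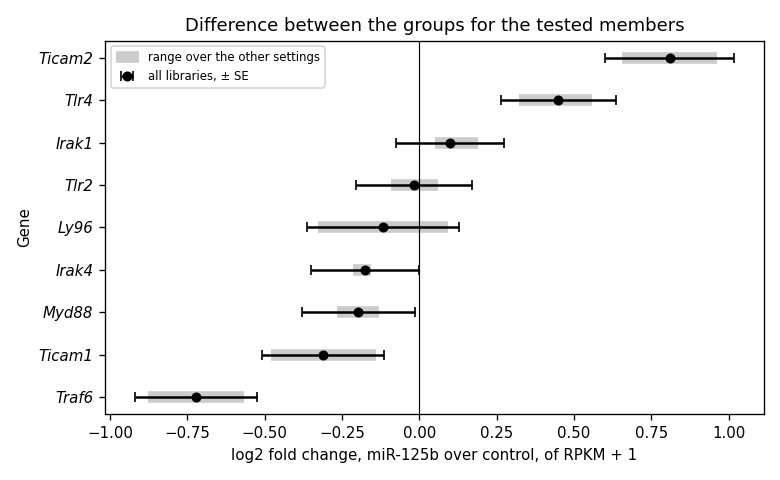
Log2 fold change of RPKM + 1, miR-125b over control, for the 9 tested members. Black points are the fit on all 4 libraries with its SE and grey bars the range over the other settings tried; Traf6 (-0.72), Tlr4 (0.45) and Ticam2 (0.81) keep their sign throughout, and the grey bars of Tlr2 and Ly96 cross 0.

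The wider pathway was described with 86 other genes, of which 57 were tested. Over all genes 0 of them passed limma's test by adjusted p. At an unadjusted p under 0.05, 5 were higher and 4 were lower, and the median log2 fold change was -0.067. Over all tested genes 4.17% were higher and 5.21% lower by that measure, shares that also stand beside the counts by role below. An 8mer or 7mer-m8 match was held by 9 of the 57 (15.8%), and of these 9 genes 3 had a log2 fold change below 0 and 6 above 0. Of the other 48 genes, 29 had a log2 fold change below 0 and 19 above 0. The medians were 0.13 with and -0.13 without such a match.

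Among the other surface receptors and co-receptors, 2 of 7 were tested. The lipopolysaccharide-binding protein gene Lbp was at 0.523 ± 0.340 RPKM in the controls against 1.34 ± 0.368 RPKM under miR-125b, and the TLR4-related receptor gene Cd180 was at 3.99 ± 0.222 and 4.65 ± 0.210 RPKM (mean ± SD, n = 2 per group). The groups did not overlap in either, and 22.3% of all tested genes were apart in that direction. Lbp rested on 8 and 20 reads in the controls against 51 and 32 reads under miR-125b. In limma's test the unadjusted p was 0.0554 for Lbp and 0.354 for Cd180. The lipopolysaccharide co-receptor gene Cd14 held between 0 and 4 reads in a library. Ly86, the partner of Cd180, and Tlr5, the flagellin receptor, held 0 reads in all libraries.

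Among the endosomal receptors and their chaperones, 4 of 10 were tested. Hsp90b1, the chaperone gp96 that folds Toll-like receptors among other proteins, stood at 499.6 and 334 RPKM in the controls against 712 and 705 RPKM under miR-125b. The groups did not overlap, and the log2 fold change of 0.79 ± 0.25 (SE) had an unadjusted p of 0.0183 and an adjusted p of 0.466 in limma's test. The unadjusted p was 0.0936 or 0.0956 when 1 of the miR-125b libraries was left out. The lower of its control values was that of control replicate 2.

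Tirap, the adaptor that brings MyD88 to TLR2 and TLR4, was at 10.8 ± 0.580 RPKM in the controls against 9.52 ± 0.390 RPKM under miR-125b (mean ± SD, n = 2 per group). Pik3ap1, which encodes the adaptor BCAP and carries an 8mer, was at 49.8 and 106.3 RPKM in the controls against 53.9 and 38.7 RPKM under miR-125b, so that only control replicate 2 was high. Of the interleukin-1 receptor family, which shares MyD88, 4 of 5 genes were tested and Il18r1 alone was past an unadjusted p of 0.05. Il18r1, a chain of the interleukin-18 receptor, was at 12.2 and 12.5 RPKM in the controls against 16.4 and 27.1 RPKM under miR-125b, with an unadjusted p of 0.0267. Its log2 fold change of 0.72 became 0.38 (limma's unadjusted p = 0.3005) when miR-125b replicate 2 was left out and 1.07 when replicate 1 was. Its partner Il18rap was at 25.1 ± 2.66 and 31.5 ± 0.438 RPKM (mean ± SD, n = 2 per group).

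Around TRAF6, 9 of 11 genes of the IRAK, TRAF and ubiquitin steps were tested, and 1 was higher at an unadjusted p under 0.05. This was Traf3, which acts in the TRIF branch and restrains NF-kB, at 14.9 and 12.7 RPKM in the controls against 18.2 and 21.5 RPKM under miR-125b (unadjusted p = 0.0392, and 0.309 when miR-125b replicate 2 was left out). Traf3 carries a 7mer-A1. The most abundant was Rbck1, the linear ubiquitin ligase subunit HOIL-1, at 60.3 ± 4.95 and 53.4 ± 0.375 RPKM (mean ± SD, n = 2 per group). All 13 genes of the TAK1, IKK and TBK1 complexes, a list that includes the IRF factors, were tested, and 0 were past an unadjusted p of 0.05. Their most abundant gene Tab2, a ubiquitin-binding subunit of the TAK1 complex, was at 88.8 ± 7.01 and 89.8 ± 8.18 RPKM (mean ± SD, n = 2 per group). Irf7, the interferon regulatory factor with the smallest p of that list, stood at 56.1 and 167.7 RPKM in the controls against 81.4 and 15.1 RPKM under miR-125b, and the groups overlapped. Its log2 fold change was -1.43 with all libraries (limma's unadjusted p = 0.118) and depended on single libraries. It was -0.25 when miR-125b replicate 2 was left out and -0.65 when control replicate 2 was. Leaving out control replicate 1 gave -2.21 and leaving out miR-125b replicate 1 gave -2.60, each with 1 library left in that group.

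The inhibitors of the pathway went both ways, with 2 of 11 tested genes higher and 2 lower at an unadjusted p under 0.05. Of all tested genes 4.17% were higher and 5.21% lower. Irak3, the inactive IRAK-M that holds back the MyD88 branch, carries a 6mer. It stood at 26.5 and 22.5 RPKM in the controls against 34.2 and 42.0 RPKM under miR-125b. Its log2 fold change was 0.61 ± 0.20 (SE), with an unadjusted p of 0.0208 and an adjusted p of 0.473 in limma's test. The unadjusted p was 0.222 when miR-125b replicate 2 was left out. The other 3 were named after their values were seen. The ubiquitin-editing enzyme gene Tnfaip3, which acts on TRAF6, stood at 5.51 and 8.10 RPKM in the controls against 9.96 and 12.9 RPKM under miR-125b, and it carries an 8mer. Socs1, which carries a 7mer-m8, was at 6.43 and 13.6 RPKM in the controls against 6.04 and 2.17 RPKM under miR-125b, and the phosphatase gene Inpp5d (SHIP1), which carries a 7mer-A1, at 21.6 and 28.3 and at 16.3 and 17.8 RPKM. The most abundant inhibitor, the phosphatase gene Ptpn6 (SHP-1), was at 178.0 ± 10.7 and 136.5 ± 28.7 RPKM (mean ± SD, n = 2 per group).

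**Figure D4:**
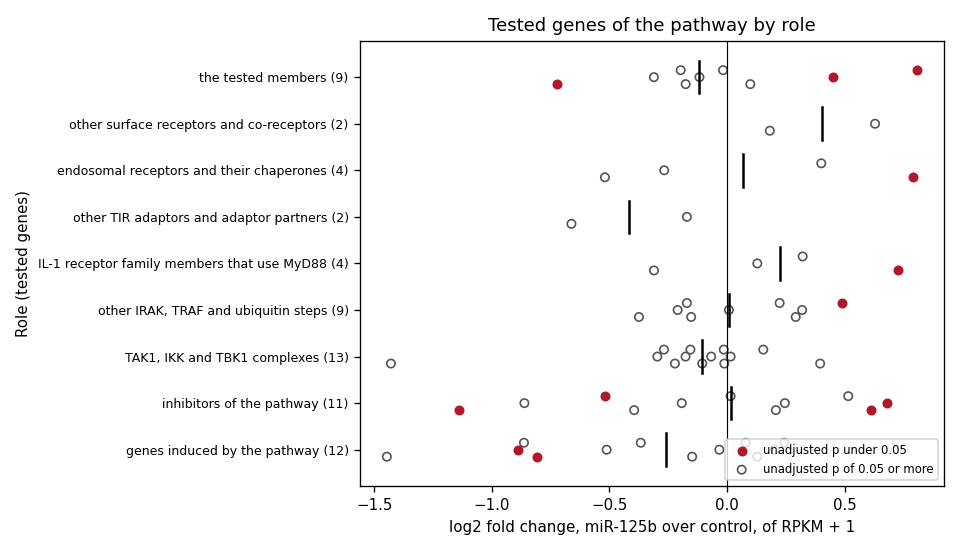
Log2 fold change of RPKM + 1, miR-125b over control, for each tested gene of the pathway, by role, with the number of tested genes in brackets. Filled points have an unadjusted p under 0.05, open points do not, and black ticks are the medians; every role with more than 2 tested genes has genes on both sides of 0, and none of the genes shown passed by adjusted p.

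Of 26 genes that the pathway induces, 12 were tested, 0 were higher and 2 were lower at an unadjusted p under 0.05. The shares over all tested genes were 4.17% higher and 5.21% lower. The cytokine gene Il6, which carries a 7mer-A1, stood at 13.4 and 10.6 RPKM in the controls against 6.41 and 6.35 RPKM under miR-125b. Its log2 fold change was -0.81 ± 0.19 (SE), with an unadjusted p of 0.00447 and an adjusted p of 0.419 in limma's test. The mRNA-destabilising factor gene Zfp36, named after its values were seen, was at 9.54 and 15.7 RPKM in the controls against 7.23 and 5.26 RPKM under miR-125b. The most abundant, Ier3, carries a 7mer-m8. It was at 18.4 and 56.9 RPKM in the controls against 34.1 and 43.8 RPKM under miR-125b, and the groups overlapped.

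Control replicate 2 was the highest library for 13 of the 22 induced genes that held reads. The same count over all genes was not made, and across genes this library stood apart from the others. The summed level of the induced genes was 264.7 RPKM in control replicate 2. It was 130.3, 145.0 and 152.6 RPKM in control replicate 1 and miR-125b replicates 1 and 2. The following genes were named after their values were seen. The chemokine gene Ccl5 was at 47.7 RPKM in control replicate 2 and between 6.27 and 7.21 RPKM elsewhere. The interferon-beta gene Ifnb1 held 21 reads in control replicate 2 and 1 read in each other library, and Cxcl10 held 46 reads there and between 6 and 10 elsewhere. By contrast, the 10 members had no common highest library, since 4 were highest in control replicate 1 and 2 in each of the others. Without control replicate 2 the log2 fold changes were -0.81 for Traf6 and 0.96 for Ticam2, both farther from 0 than with all libraries, and 0.34 for Tlr4.

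**Figure D5:**
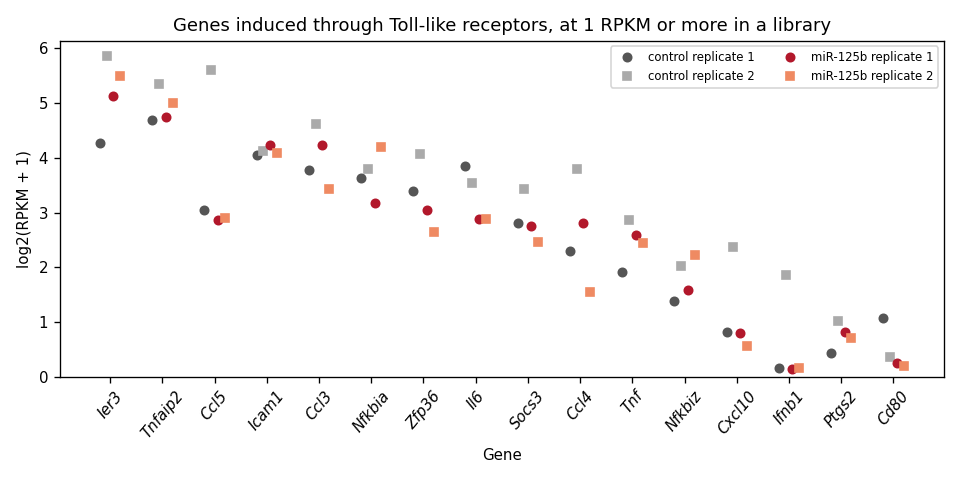
Log2(RPKM + 1) in each of the 4 libraries for the 16 genes of the induced list that reached 1 RPKM in any library, ordered by mean level. Points are single libraries; control replicate 2 lies apart at the top for Ccl5, Ccl4, Cxcl10 and Ifnb1, and Il6 is lower in both miR-125b libraries.

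Lists of markers of other cell states were summed in each library, and 0 markers of any list passed limma's test by adjusted p. The summed levels of the groups overlapped for the mast cell and stromal lists, but single genes in them differed. Of 5 tested mast cell and basophil genes, 2 were higher and 1 was lower at an unadjusted p under 0.05 in limma's test. Of 2 tested stromal genes, 1 was higher. Over all tested genes 4.17% were higher and 5.21% lower. The 10 genes of mature neutrophils, which in the body carry these receptors, had a lower summed level under miR-125b. It was 879.8 and 527.8 RPKM in the controls against 163.7 and 130.0 RPKM under miR-125b. Of 6 tested genes 4 were lower at an unadjusted p under 0.05 (5.21% of all tested genes were). The groups were apart in 4 lower genes and 1 higher gene (20.4% and 22.3% of all tested genes), and Mmp8 and Retnlg were at 0. S100a9, the most abundant, was at 459.7 and 247.8 RPKM in the controls against 33.0 and 1.92 RPKM under miR-125b. The 9 monocyte and macrophage genes, with Ccr2 at 0, summed to 55.3 and 72.3 RPKM in the controls against 113.2 and 91.5 RPKM under miR-125b. Cd68 alone was at 26.0 and 39.1 and at 85.2 and 76.7 RPKM. Without it the sum went the other way, and both miR-125b libraries were below both control libraries. Of 4 tested genes of this list, 1 was higher at an unadjusted p under 0.05 (4.17% of all tested genes were). The groups were apart in 2 higher genes and 1 lower gene (22.3% and 20.4% of all tested genes). The 8 mast cell and basophil genes summed to 105.8 and 111.7 and to 85.6 and 111.4 RPKM, with Fcer1a and Tpsb2 at 0 and Gata2, the most abundant, at 70.9 ± 6.38 and 64.2 ± 28.0 RPKM (mean ± SD, n = 2 per group). The 9 lymphoid genes summed to 1.38 to 4.80 RPKM, with Pax5 and Ncr1 at 0 and Cd79b at 1.12 ± 0.117 and 3.01 ± 2.29 RPKM, and the 7 stromal genes to 4.89 to 9.94 RPKM, with Col1a2, Col3a1 and Dcn at 0 and Pdgfrb at 6.66 ± 2.55 and 5.49 ± 4.30 RPKM (mean ± SD, n = 2 per group). The part of these marker levels in the differences of Tlr4, Ticam2 and Traf6 was not tested, and in bulk RNA a smaller share of cells of a kind and less RNA per cell cannot be told apart.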

How the data were processed

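Poly(A) RNA of 2 control and 2 miR-125b libraries was sequenced (Illumina), per the labels' protocols. The authors deposited 1 RPKM table per library, with a row for each of 26982 RefSeq transcripts on mm9, the build given in the submitters' processing notes. Not given in the sources used here: aligner, counter, use of strand. In 100.0% of rows RPKM times exon length gave whole reads (tolerance 0.001), so reads were recovered.

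The longest row of each of 21506 genes was kept. Because the unit was RPKM, the test was limma 3.58.1 (R 4.3.3) with a trended prior on log2(RPKM + 1), 2-sided, with Benjamini-Hochberg adjustment over 10310 genes with at least 1 RPKM in at least 2 libraries. Fold changes on this scale understate those of low genes. With 2 residual and 4.63 prior degrees of freedom, the spread behind each p-value drew more on the prior shared over genes than on the gene's own replicates. That spread is the one between these cultures only. The fit was tested on simulated data. Seed matches were searched in GENCODE M21 protein-coding transcripts (98.9% of genes matched by accession or symbol), whose build differs from mm9, so no coordinates were taken from it. Members and lists were chosen with earlier results of these data known. The text names all members, the most abundant tested gene and that with the smallest p of each role (every tested gene where fewer than 3 were tested), the most abundant tested marker of each list, and the hairpin row of the expressed miRNA. The hairpin rows of Mir146 and Mir155 held 0 reads and that of Mir146b 1 read, in control replicate 1. Alternatives were the pseudocount, the filter, scaling, the row kept, limma-voom, a replicate block, libraries left out and, added after seeing the data, a GC correction. A fit with a library left out had 1 library in that group, so its p-values took no spread from that group.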

Additional observations from a re-analysis of the deposited data

How the results depend on the processing

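Traf6 stayed below 0 and Tlr4 and Ticam2 above 0 in all 14 alternative settings, with ranges of -0.88 to -0.57, 0.32 to 0.56 and 0.66 to 0.96 on the log2 scale. Their unadjusted p was under 0.05 in 13, 6 and 13 of the settings, and no member was called in any of them. With limma-voom the median over the tested members was -0.21. With libraries left out in turn, the number of genes called over all genes ran from 0 to 91, those at an unadjusted p under 0.05 from 332 (without miR-125b replicate 2) to 3007 (without control replicate 1), and the members at an unadjusted p under 0.05 from 0 (without miR-125b replicate 2) to 3.

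The labels do not say that replicate numbers pair the libraries, and deviations of same-numbered libraries correlated at 0.021. With the replicate block 12 genes were called in place of 0, of which 0 were members. In that setting 1085 of the 10310 tested genes had an unadjusted p under 0.05, and 2 of the 9 tested members did.

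The sign of the log2 fold change turned for 7 of 31 named genes. With libraries left out in turn, Tlr2 ran from -0.093 to 0.059 (0.024 without control replicate 2), Ly96 from -0.33 to 0.094, Tab2 from -0.077 to 0.11 (-0.065 without control replicate 2), Ier3 from -0.55 without control replicate 1 (unadjusted p = 0.0417, limma) to 1.03 without control replicate 2 (0.00334), Ctsg from -0.49 to 0.35 (0.12 without miR-125b replicate 2), Gata2 from -0.66 to 0.24 and Pdgfrb from -1.11 to 0.36. Tab2 was also at -0.0026 with trimmed mean scaling and -0.021 with the GC correction. The cause was not tested. In the fits on all 4 libraries, S100a9 and Mir125b-1 alone of the 31 named genes passed by adjusted p, both with the replicate block. Passes of single named genes with a library left out are not listed, as such a fit had 1 library in that group. Ly96 and Tlr6 held at most 15 reads in a library, which limits what they can show.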
